A study of Mus musculus with 6 samples.

Results

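Genes that mark other dendritic cell types were followed in RNA sequenced from type-2 conventional dendritic cells (cDC2s) of the spleen. They were the table rows carrying 10 chosen gene symbols, 5 of type-1 conventional dendritic cells (cDC1s: Xcr1, Clec9a, Cadm1, Naaa and Wdfy4) and 5 of plasmacytoid dendritic cells (Siglech, Tcf4, Spib, Pltp and Runx2), out of 14788 symbols. All 10 were in the table and all 10 passed the filter on low counts. Of the 6 libraries, 3 came from cells of Arhgef1-/- mice and 3 from cells of WT mice, all on the C57BL/6 strain. The Arhgef1 protein switches on RhoA, a small GTPase that governs cell shape and movement, on signals from G protein-coupled receptors. The sources used here give no ages, number of animals or sorting gates, nor the part of Arhgef1 that was removed. Whether each library is its own animal is not in the labels, and the p-values then reflect only library-to-library spread, part or all of which may be technical.

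The cDC1 takes up dead cells and presents their antigens to CD8 T cells, and it depends on the transcription factors Irf8 and Batf3. The plasmacytoid dendritic cell secretes type I interferon when its endosomal Toll-like receptors meet viral nucleic acid, and it is specified by the E protein Tcf4, which the inhibitor Id2 opposes. The cDC2, which presents antigen mainly to CD4 T cells and carries Sirpa, Irf4 and, in the spleen, Cd4, shares several of these regulators at lower or similar levels. Transcripts of such genes in sorted cDC2s can come from the cDC2s themselves or from other cells in the sort, and in bulk RNA fewer cells of a type and less RNA per cell cannot be told apart.

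Total counts per library ran from 8408325 to 11714365. Values below are CPM, a gene's count relative to the library size scaled by TMM, and a gene was called where the edgeR quasi-likelihood test gave a Benjamini-Hochberg adjusted p under 0.05 over the 11504 genes tested. Arhgef1 stood at 115, 128 and 144 CPM in the knockout libraries and 287, 317 and 246 CPM in the WT libraries (adjusted p = 6.96e-06), so the labels and the targeted gene went together. Sirpa stood at 142 ± 2.49 CPM per kb of exons in the knockout and 176 ± 6.46 in WT, and Irf4 at 87.6 ± 6.29 and 86.7 ± 8.57 (SD, n = 3 each). Of 15 cDC2 markers, Mgl2 and Clec10a were too low to test. By the read file names in the labels, every knockout library carries lane 2 and every WT library lane 1, under different run names, so lane, run name and genotype cannot be told apart.

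Among the 10 genes, Spib and Pltp rose, Cadm1 fell and 7 did not pass the test. The background was 9.67% of all tested genes called in either direction, 5.09% higher and 4.58% lower. The median log2 fold change of the 10 genes was 0.07, with 5 above and 5 below 0, and that of all tested genes 0.0003. In 2 of the 10, Spib and Cadm1, the knockout and WT values did not overlap, beside 27.2% of all tested genes. The rise of Spib alone kept its call in every one of the 15 alternative settings.

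**Figure D1:**
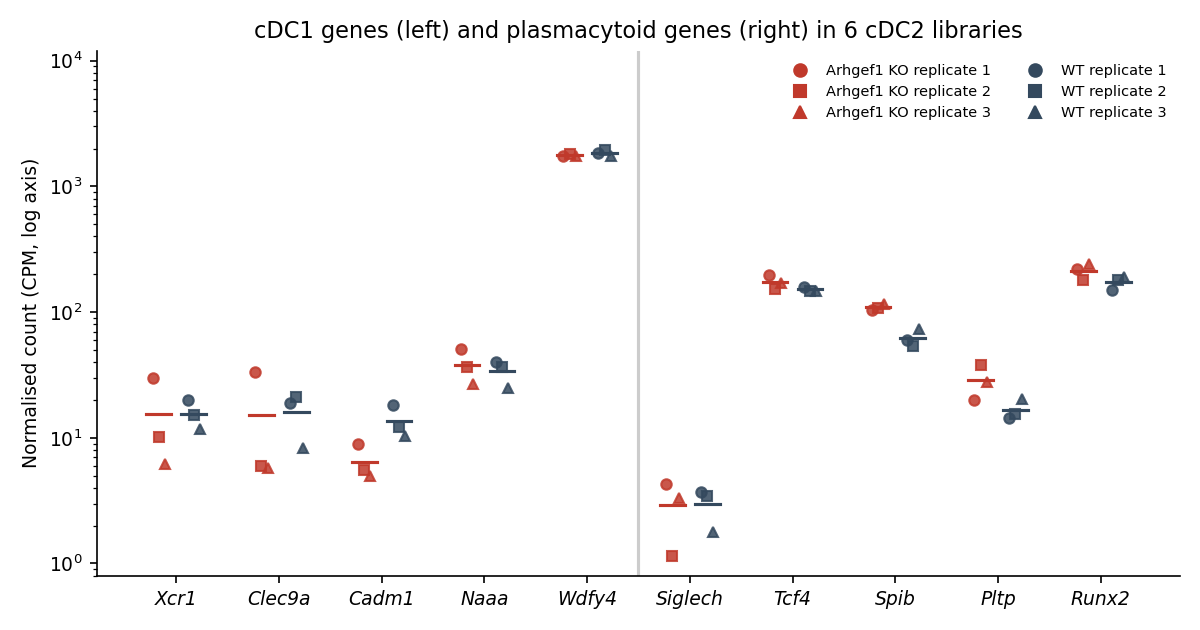
Normalised counts (CPM, log axis) of the 5 cDC1 genes and the 5 plasmacytoid genes in each of the 3 Arhgef1 knockout libraries (red) and 3 WT libraries (dark blue); symbols mark the replicate and bars the group mean. Spib lies between 104 and 116 CPM in the knockout and between 53.8 and 73.1 CPM in WT, while Xcr1 and Clec9a are spread more widely among the knockout libraries than between the genotypes.

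Levels between genes were compared per kb of exons. Wdfy4 was the highest of the 10 in both genotypes, at 168 ± 2.89 CPM per kb in the knockout and 176 ± 9.68 in WT, close to Sirpa. It was followed by Spib (38.0 ± 2.24 in the knockout, 21.7 ± 3.46 in WT) and Runx2 (24.2 ± 3.56 and 19.6 ± 2.42), which were apart in the knockout and overlapped in WT. Then came Pltp (11.2 ± 3.51 and 6.50 ± 1.25) and Naaa (10.2 ± 3.20 and 9.06 ± 2.15), whose library values overlapped each other in both genotypes. Neighbours also overlapped for Tcf4 (6.32 ± 0.81 and 5.53 ± 0.27) and Clec9a (4.58 ± 4.85 and 4.86 ± 2.06) and for Clec9a and Xcr1 (3.45 ± 2.84 and 3.49 ± 0.92), and for Pltp and Tcf4 in WT. Siglech (0.86 ± 0.48 and 0.88 ± 0.31) and Cadm1 (0.62 ± 0.20 and 1.302 ± 0.40) came last and overlapped each other. The exons of all annotated Tcf4 transcripts together span 27.4 kb, whereas its longest transcript is 8.58 kb. Per kb of the longest transcript Tcf4 stood at 20.2 in the knockout and 17.6 in WT, above Naaa and Pltp. On that scale Runx2 (26.8) stood above Spib (22.3) in WT. Cadm1, with 10.4 kb of exons and a longest transcript of 4.77 kb, stood on that scale at 1.355 in the knockout and 2.85 in WT. Siglech stood lower, at 1.27 and 1.30.

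The surface receptors Xcr1, Clec9a and Siglech were thus among the lower genes. The B cell genes Cd79a (2.55 ± 1.11 CPM per kb in the knockout, 2.78 ± 1.78 in WT) and Ms4a1 (3.45 ± 1.40 and 2.82 ± 0.52) stood near the level of Xcr1. Wdfy4, Spib and Runx2 stood above both in every library, whereas Cd22, another gene on the B cell list, stood at 80.1 ± 8.64 CPM per kb in the knockout and 72.2 ± 5.63 in WT. The T cell gene Cd3e stood at 0.62 ± 0.76 and 0.80 ± 0.57 CPM per kb and the NK cell gene Ncr1 at 0.80 ± 0.61 and 0.56 ± 0.58, both near Siglech and Cadm1.

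**Figure D2:**
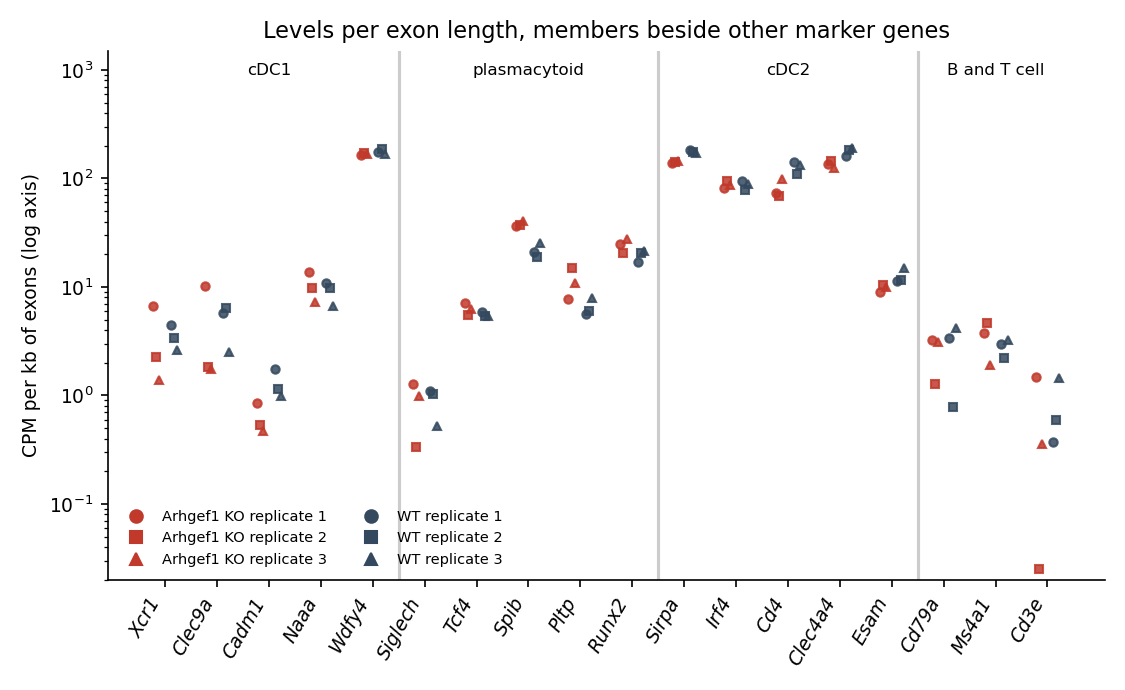
Level per exon length (CPM per kb, log axis) of the 10 genes beside cDC2 genes and B and T cell genes, in each knockout library (red) and WT library (dark blue). Wdfy4 lies near Sirpa and Clec4a4, while Xcr1 and Clec9a reach 6.69 and 10.2 CPM per kb in their highest library and Cadm1 and Siglech 1.75 and 1.27.

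Xcr1 and Clec9a are the surface receptors by which cDC1s are usually recognised. Xcr1 (mm10 chromosome 9, 123852315 to 123862029, minus strand) binds the chemokine Xcl1, and Clec9a (chromosome 6, 129408862 to 129424763, plus strand) is a lectin that binds exposed actin of dead cells. Their promoter windows run from 250 bases before to 50 bases after the annotated start (RefSeq, GRCm38.p6). They are shown because both transcripts were highest in knockout replicate 1 and lowest in knockout replicates 2 and 3. In WT, Xcr1 was highest in replicate 1 and Clec9a in replicate 2. Capitals mark the E-box CANNTG, which 72.3% of the 32851 promoter windows hold. The pattern matches at the same places on both strands, although the middle letters of a match can differ between them.
Xcr1: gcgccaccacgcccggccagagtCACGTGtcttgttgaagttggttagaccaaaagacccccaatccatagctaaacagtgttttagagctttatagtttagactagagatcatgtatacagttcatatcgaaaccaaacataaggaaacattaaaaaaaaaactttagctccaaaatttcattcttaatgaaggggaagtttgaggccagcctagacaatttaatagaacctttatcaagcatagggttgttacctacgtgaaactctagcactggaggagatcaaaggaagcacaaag
Clec9a: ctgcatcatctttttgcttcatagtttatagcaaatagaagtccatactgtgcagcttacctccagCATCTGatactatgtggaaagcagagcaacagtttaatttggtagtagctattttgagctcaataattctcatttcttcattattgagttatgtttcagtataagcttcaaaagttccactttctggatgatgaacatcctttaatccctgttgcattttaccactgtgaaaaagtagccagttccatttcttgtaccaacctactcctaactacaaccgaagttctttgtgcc
The windows lie at chr9:123861980-123862279 (minus strand) and chr6:129408612-129408911 (plus strand).

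Xcr1 stood at 29.8, 10.1 and 6.14 CPM in knockout replicates 1, 2 and 3, and at 19.8, 15.1 and 11.7 CPM in WT replicates 1, 2 and 3. Clec9a stood at 33.5, 6.00 and 5.71 CPM in the knockout and 18.8, 21.0 and 8.26 CPM in WT. For both genes knockout replicate 1 was the highest of all 6 libraries and knockout replicates 2 and 3 the lowest, so the genotypes overlapped. Neither passed the test (Xcr1 log2 fold change -0.03 ± 0.40, adjusted p = 0.976; Clec9a -0.10 ± 0.50, adjusted p = 0.936; errors are SE).

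The spread among the knockout libraries was wide for genes of this level. The highest knockout value of Xcr1 was 4.85 times the lowest, and only 0.229% of the 1750 tested genes within 0.5 log2 CPM of its average had a ratio at least as large, itself included. For Clec9a the ratio was 5.87, and 1 of 1752 genes, Clec9a itself, reached it. Among the WT libraries the ratio of Xcr1 was 1.70, with 18.2% of genes of its level at least as wide, and that of Clec9a 2.54, with 1.77% at least as wide. Without knockout replicate 1 the log2 fold change of Clec9a was -1.45 (adjusted p = 0.0218) and that of Xcr1 -0.94 (adjusted p = 0.0875). With all other single libraries left out it ranged from -0.41 to 0.29 for Clec9a and from -0.20 to 0.35 for Xcr1.

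Irf8, a transcription factor that cDC1s depend on, was also highest in knockout replicate 1 and lowest in knockout replicates 2 and 3. It is also on the plasmacytoid list and is named after its values were seen. It stood at 54.0, 16.96 and 17.4 CPM in the knockout and 46.0, 29.4 and 19.8 CPM in WT (log2 fold change -0.12, adjusted p = 0.890). The ratio of Xcr1 to Irf8 in CPM lay between 0.353 and 0.598 over the 6 libraries, a 1.69-fold range, and that of Xcr1 to Clec9a between 0.72 and 1.69, a 2.35-fold range, while Xcr1 itself ranged 4.85-fold. Xcr1, Clec9a and Irf8 were thus high together in knockout replicate 1. Batf3, which cDC1s also depend on, was not: it stood at 36.55, 37.5 and 39.05 CPM in the knockout and 38.0, 36.3 and 38.6 CPM in WT. Id2, also on the cDC1 list, was highest in knockout replicate 2, at 153, 199 and 125 CPM in the knockout and 184, 189 and 138 CPM in WT.

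Knockout replicate 1 was the highest knockout library for 4 of the 5 cDC1 genes and for 17 of the 22 other tested genes of the cDC1 list, or 77.3%. Over all tested genes it was the highest knockout library for 32.3%. In WT, replicate 1 was highest for 11 of the 22. The neutrophil markers were also highest in knockout replicate 1, at a summed 24.8 CPM, beside 0.31 and 5.71 CPM in knockout replicates 2 and 3 and 1.53 to 3.45 CPM in WT; of these 8 markers 6 were in the table and 1 was tested. Among them S100a8 stood at 4.54, 0.10 and 1.53 CPM in the knockout and 0.10, 0.69 and 0.24 CPM in WT, Mpo had no read in any knockout library, and Camp had 5 reads in knockout replicate 1 and none in the other two. The T cell list summed to 157, 86.05 and 138 CPM in the knockout and 80.9 to 98.1 CPM in WT, most of it Tcf7 and Cd5, while Cd3e stood at 6.05, 0.10 and 1.45 CPM in the knockout and 1.53, 2.42 and 5.90 CPM in WT. The part of either marker list in the level of the cDC1 genes was not tested.

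**Figure D3:**
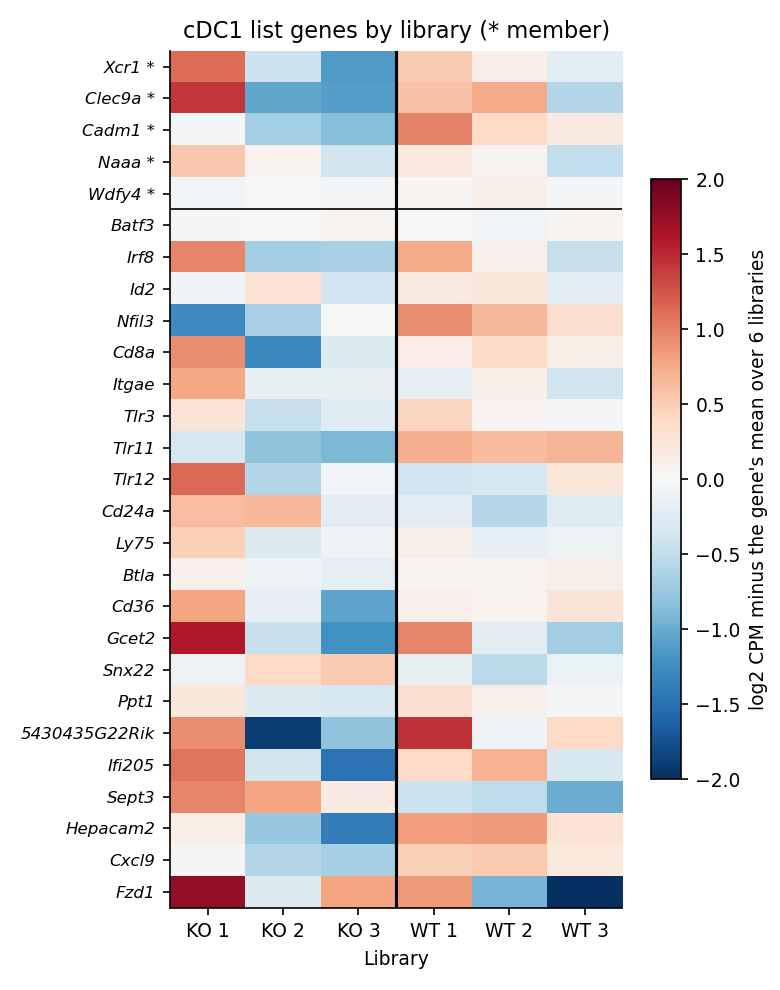
Log2 CPM minus each gene's mean over the 6 libraries for the 27 tested genes of the cDC1 list, with knockout libraries left of WT libraries and the 5 members on top; colours are capped at 2 in either direction. Knockout replicate 1 is red for Xcr1, Clec9a, Irf8 and most of the list, while Wdfy4 and Batf3 are near white in every library.

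Cadm1 (chromosome 9, 47530173 to 47857637, plus strand) encodes an immunoglobulin-family adhesion molecule that binds Crtam on activated T cells. It was the only cDC1 gene of the 5 to pass the test. It fell to 8.85, 5.58 and 4.95 CPM in the knockout libraries, against 18.3, 12.1 and 10.4 CPM in the WT libraries. Every knockout value lay below every WT value, by a narrow margin between knockout replicate 1 and WT replicate 3. The log2 fold change was -1.08 ± 0.32 (adjusted p = 0.0411), and the call was lost without knockout replicate 2 (-0.9978) or 3 (-0.92) or WT replicate 1 (-0.80) or 2 (-1.16). The adjusted p ranged from 0.0203 to 0.245 over the alternatives.

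The genes nearest to Cadm1 over the 6 libraries, by the root mean square difference of centred log2 CPM among 8083 genes, were Emr4 (0.16), a myeloid adhesion receptor of the F4/80 family, and Fam190a (0.17). Emr4 fell (log2 fold change -0.87, adjusted p = 0.0118), though not without knockout replicate 2 (-0.82) or 3 (-0.74) or WT replicate 1 (-0.73), and Fam190a fell (-1.35, adjusted p = 0.00234). Beside Cadm1, 15 of 18 macrophage markers fell, with a summed level of 308 to 487 CPM in the knockout and 843 to 1304 CPM in WT. The knockout library and the WT library with the most Cadm1 also had the highest sum of their genotype. The complement genes of macrophages stood at 0.43 to 1.63 CPM (C1qa), 7.76 to 18.5 CPM (C1qb) and 10.1 to 19.7 CPM (C1qc) in the knockout, and at 3.07 to 8.53, 25.6 to 55.75 and 33.5 to 45.2 CPM in WT. The part of these cells in the fall of Cadm1 was not tested.

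Naaa (chromosome 5, 92257659 to 92278170, minus strand) encodes a lysosomal hydrolase of fatty acid ethanolamides. It stood at 50.6, 36.5 and 26.9 CPM in the knockout and 40.1, 36.3 and 24.8 CPM in WT, with overlapping genotypes (log2 fold change 0.17 ± 0.22, adjusted p = 0.726).

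Wdfy4 (chromosome 14, 32959547 to 33185508, minus strand) encodes a BEACH-domain protein that cDC1s need to cross-present cell-associated antigen. It stood at 1751, 1806 and 1755 CPM in the knockout and 1855, 1959 and 1755 CPM in WT, the most even of the 10 genes among the knockout libraries (log2 fold change -0.07 ± 0.07, adjusted p = 0.599). Its highest knockout value was 1.03 times its lowest, so that it did not share the 4.85-fold spread of Xcr1.

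Of the whole cDC1 list of 30 genes, 27 were tested, 2 rose, 4 fell and 21 did not pass, with a median log2 fold change of -0.10. The genes that fell, apart from Cadm1, were Tlr11, a receptor for the profilin of Toxoplasma (-1.36 ± 0.17, adjusted p = 5.56e-05), Nfil3, a transcription factor of cDC1 development (-1.22 ± 0.34, adjusted p = 0.0311), and Cxcl9, a chemokine gene induced by interferon-gamma (-0.80 ± 0.20, adjusted p = 0.0164). Those that rose were Sept3, a septin (1.31 ± 0.20, adjusted p = 4.15e-04), and Cd24a, a glycoprotein found on many immature blood cells (0.75 ± 0.19, adjusted p = 0.0197). Tlr11 and Sept3 kept their calls in all 15 alternatives.

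The other calls of the cDC1 list were each lost in 4 of the 6 fits that left out a library. Nfil3 lost its call without knockout replicate 1 (-0.95) or 2 (-1.16) or WT replicate 1 (-1.06) or 2 (-1.22). Cxcl9 lost its call without knockout replicate 2 (-0.71) or 3 (-0.67) or WT replicate 1 (-0.76) or 2 (-0.74). Cd24a lost its call without knockout replicate 1 (0.63) or 2 (0.59) or WT replicate 2 (0.64) or 3 (0.79). Without knockout replicate 1 the median of the list was -0.61, with 1 gene higher and 6 lower of 28 tested, and that of all tested genes was -0.0014. The median of the list was 0.10 without knockout replicate 3, with 2 genes higher and 2 lower, and -0.0086 without knockout replicate 2, with 1 higher and 1 lower.

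Of the 5 plasmacytoid genes Spib and Pltp rose and 3 did not pass the test. Spib (chromosome 7, 44525993 to 44532071, minus strand) encodes an ETS transcription factor that plasmacytoid cells and B cells use, Pltp (chromosome 2, 164839518 to 164857711, minus strand) a phospholipid transfer protein, and Runx2 (chromosome 17, 44495987 to 44814797, minus strand) a Runt-domain factor that plasmacytoid cells need to leave the bone marrow. The promoter windows of the genes that rose, Spib and Pltp, are shown with the E-box CANNTG in capitals, the motif bound by E proteins such as Tcf4. That of Runx2 is shown with the Runx motif TGTGGT in capitals, searched on both strands, because it holds 3 copies. It was picked for that count after several motifs were searched in the windows of 8 members. The share of all windows given for it below is therefore no measure of rarity.
Spib: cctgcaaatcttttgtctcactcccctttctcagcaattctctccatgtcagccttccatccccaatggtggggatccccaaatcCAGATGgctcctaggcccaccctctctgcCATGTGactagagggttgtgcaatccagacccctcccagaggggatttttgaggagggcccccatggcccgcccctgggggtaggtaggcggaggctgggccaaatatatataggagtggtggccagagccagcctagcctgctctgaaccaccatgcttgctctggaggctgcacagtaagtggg
Pltp: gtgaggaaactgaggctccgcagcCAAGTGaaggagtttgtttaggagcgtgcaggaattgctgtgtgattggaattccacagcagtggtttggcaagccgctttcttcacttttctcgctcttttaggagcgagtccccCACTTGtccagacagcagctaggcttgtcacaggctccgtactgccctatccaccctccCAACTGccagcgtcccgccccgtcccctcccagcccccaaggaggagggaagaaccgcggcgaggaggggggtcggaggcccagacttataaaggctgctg
Runx2: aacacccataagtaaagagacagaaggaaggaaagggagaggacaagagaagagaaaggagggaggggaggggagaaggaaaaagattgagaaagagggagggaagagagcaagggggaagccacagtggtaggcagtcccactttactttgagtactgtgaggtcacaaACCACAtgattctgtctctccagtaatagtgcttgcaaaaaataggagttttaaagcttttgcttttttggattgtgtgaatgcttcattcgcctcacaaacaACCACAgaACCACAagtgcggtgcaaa
These windows lie at chr7:44532022-44532321, chr2:164857659-164857958 and chr17:44814578-44814877, all on the minus strand. The window of Spib held 2 E-boxes, 165 and 136 bases before the start, and that of Pltp 3, at 226, 110 and 51 bases before it. Of all windows 17.6% held 3 or more E-boxes. Among the members that did not pass the test, Wdfy4 held 5, Siglech 3, Runx2 2, Xcr1 and Clec9a 1 each and Naaa 0. A link between E-boxes and the changes was not tested. The E-box form CAGGTG, in 20.2% of all windows, matched once in Siglech, and CAGCTG, in 16.3%, once in Wdfy4. These forms had no match in Spib or Pltp. Of the ETS motifs, GAGGAA (28.3% of windows) matched once in Pltp, 248 bases before the start, and AGGAAG (35.4%) in neither. All copies of the Runx motif in the Runx2 window read ACCACA, its other strand. They lay 80 bases before and 23 and 31 bases after the start of Runx2, where the first and the third copy each overlapped an E-box; 16.8% of all windows held this motif and 0.183% held 3 or more copies. Windows were found for 8 of the 10 genes.

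Spib stood at 104, 107 and 116 CPM in the knockout libraries and 59.6, 53.8 and 73.1 CPM in the WT libraries. The lowest knockout library lay well above the highest WT library. The log2 fold change was 0.81 ± 0.13, or 1.76-fold (adjusted p = 4.87e-04), and it ranged from 0.72 to 0.94 over the 15 alternatives with adjusted p from 2.27e-07 to 0.00632. Spib lies on the same chromosome as Arhgef1, 19.6 Mb beyond it.

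The genes nearest to Spib over the 6 libraries were Raph1 (root mean square difference 0.08), which encodes the actin regulator lamellipodin, and Ncapd2 (0.08), a condensin subunit of dividing cells. Both rose (log2 fold change 0.70, adjusted p = 0.00390, and 0.89, adjusted p = 2.68e-04). Beside Spib, 23 of 24 cell cycle genes rose, with a summed level of 4387 to 5085 CPM in the knockout and 2067 to 2546 CPM in WT; their part in the rise of Spib was not tested. B cells also express Spib. Of the 10 tested B cell markers 0 passed edgeR's test, with 0 at an unadjusted p under 0.05, and 0 passed with DESeq2 or limma-voom. They summed to 481 to 552 CPM in the knockout and 429 to 503 CPM in WT, most of it Cd22.

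Pltp stood at 20.02, 38.0 and 27.7 CPM in the knockout and 14.3, 15.4 and 20.29 CPM in WT. Its genotypes overlapped, with knockout replicate 1 just under WT replicate 3. Its log2 fold change was 0.78 ± 0.24 (adjusted p = 0.0440). The call was lost without knockout replicate 2 (0.52) or 3 (0.81) or WT replicate 1 (0.68) or 2 (0.73), and also with upper-quartile factors, limma-voom and the replicate block, with adjusted p from 0.0120 to 0.258 over the alternatives. The genes nearest to Pltp were the chaperone gene Dnajb1 (0.06), which rose (0.87, adjusted p = 0.00363), and the prefoldin gene H2-Ke2 (0.08), which did not pass (0.67, adjusted p = 0.223).

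Runx2 stood at 218, 180 and 242 CPM in the knockout and 149, 181 and 190 CPM in WT. The genotypes overlapped at knockout replicate 2, and the gene did not pass the test (log2 fold change 0.30 ± 0.12, adjusted p = 0.117). Without knockout replicate 2 it passed (0.41, adjusted p = 0.0491).

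Tcf4 (chromosome 18, 69343356 to 69689079, plus strand), the E protein that sets plasmacytoid identity, stood at 196, 152 and 171 CPM in the knockout and 160, 148 and 147 CPM in WT. Only knockout replicates 1 and 3 lay above all WT libraries, and the gene did not pass (log2 fold change 0.19 ± 0.11, adjusted p = 0.307). Of the 7 tested genes of the E protein and Id list 0 were called with limma-voom. DESeq2 called 1, Tcf12, as did edgeR on total counts without TMM. At the adjusted threshold edgeR with TMM called 0, with 2 at an unadjusted p under 0.05. These 2 were the E protein gene Tcf12 (55.1 ± 3.22 CPM in the knockout and 39.9 ± 5.81 CPM in WT, log2 fold change 0.47 ± 0.15, adjusted p = 0.0565) and Zeb2, a repressor that favours plasmacytoid and cDC2 fates over cDC1 (261 ± 17.9 and 298 ± 7.62 CPM, -0.19 ± 0.09, adjusted p = 0.199). Cbfa2t3, a corepressor that works with E proteins, stood at 585 ± 22.8 and 550 ± 27.3 CPM (0.09 ± 0.08, adjusted p = 0.543).

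Siglech (chromosome 7, 55768178 to 55778925, plus strand), the sialic acid-binding lectin by which mouse plasmacytoid cells are recognised, was the lowest of the 10 in CPM. It stood at 4.31, 1.14 and 3.33 CPM in the knockout, from 37, 11 and 39 reads, and at 3.74, 3.45 and 1.77 CPM in WT, from 39, 30 and 15 reads. The genotypes overlapped and no change was detectable at this depth (log2 fold change -0.04 ± 0.57, adjusted p = 0.981).

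Of the plasmacytoid list of 31 genes, 30 were in the table and 22 were tested; 2 rose, 3 fell and 17 did not pass, with a median log2 fold change of 0.10. The 2 that rose were Spib and Pltp. Those that fell were Klra17, which encodes the receptor Ly49Q of plasmacytoid and other myeloid cells (32.9 ± 14.6 CPM in the knockout and 169 ± 13.3 CPM in WT, -2.38 ± 0.23, adjusted p = 6.96e-06), Tlr7, a sensor of single-stranded RNA (104 ± 11.0 and 178.5 ± 39.0 CPM, -0.78 ± 0.14, adjusted p = 0.00104), and Cd4 (324 ± 64.2 and 515 ± 67.7 CPM, -0.67 ± 0.12, adjusted p = 0.00138). Klra17, Tlr7 and Cd4 kept their calls in all 15 alternatives, and Cd4 is also on the cDC2 list. Of the list's genes other than the 5 members, Cd300c, a leukocyte immunoglobulin-family receptor, had the next smallest p and did not pass (0.61 ± 0.46 and 1.72 ± 0.76 CPM, -1.52 ± 0.79, adjusted p = 0.269). The median of the list was -0.10 without knockout replicate 1, -0.02 without knockout replicate 3 and -0.10 without WT replicate 2.

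Several genes of the plasmacytoid list were too low to test. Klk1 had 0 to 1 reads in the knockout libraries and 0 to 2 in WT, Cox6a2 had 0 to 6 and 0 to 3, Upb1 0 to 8 and 0 to 1, Ly6d 6 to 14 and 2 to 13, and Pacsin1 4 to 11 and 3 to 21. In the same libraries Spib, Tcf4 and Runx2 ranged from 53.8 to 242 CPM. Other genes of the list were tested and not called. Bst2 stood at 13.05 ± 1.09 CPM in the knockout and 11.7 ± 1.43 CPM in WT, and Ccr9 at 13.35 ± 8.85 and 11.3 ± 3.53 CPM. Lag3 stood at 20.9 ± 6.21 and 21.1 ± 2.41 CPM, and Ptprs at 64.3 ± 15.6 and 57.9 ± 9.21 CPM. Whether plasmacytoid cells were in the sort was not tested.

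**Figure D4:**
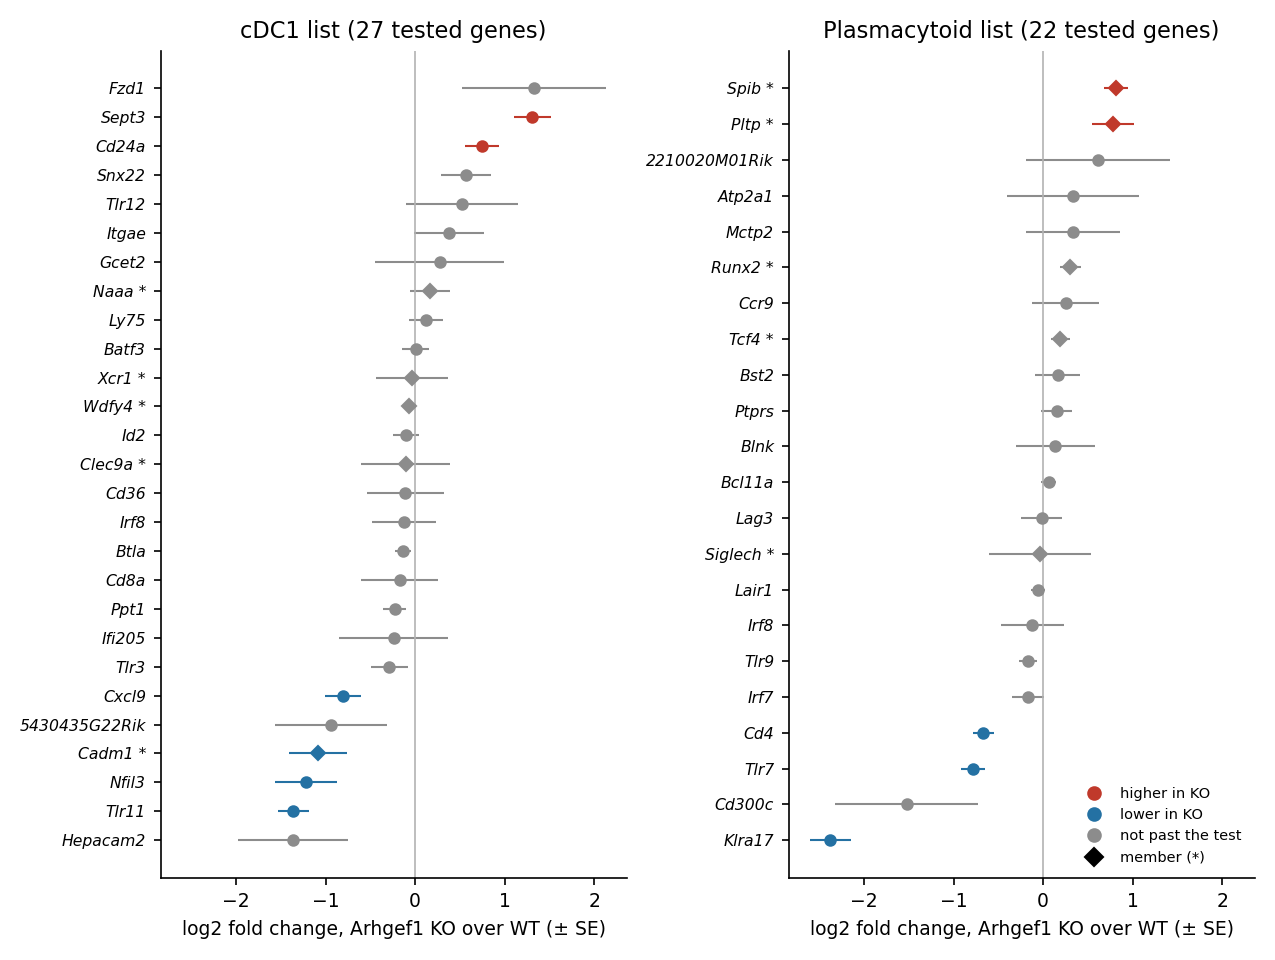
Log2 fold change (Arhgef1 knockout over WT, ± SE) of the 27 tested genes of the cDC1 list and the 22 of the plasmacytoid list; diamonds and asterisks mark the members, red a rise, blue a fall and grey genes that did not pass the test. Both lists hold rises and falls, from -1.36 to 1.31 in the cDC1 list and from -2.38 to 0.81 in the plasmacytoid list.

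In the cDC2 list itself, 1 gene rose, 4 fell and 8 of the 13 tested did not pass, with a median log2 fold change of -0.02. Cd209a, a C-type lectin (-1.59 ± 0.10), Cd4, Sirpa (-0.32 ± 0.07) and the inhibitory lectin Clec4a4 (-0.40 ± 0.11) fell and the Notch target Dtx1 rose (0.42 ± 0.10). Sirpa lost its call without WT replicate 1 (-0.29), Dtx1 without knockout replicate 2 (0.31) or WT replicate 1 (0.34), and Clec4a4 without knockout replicate 1 (-0.39) or 3 (-0.34) or WT replicate 2 (-0.38) or 3 (-0.35). Of the other lists, 5 of 10 genes of the conventional dendritic cell core fell, as did 3 of 5 tested monocyte markers, while 1 of 5 tested T cell markers rose, 1 of 3 NK cell markers rose and 1 fell, and none of 4 plasma cell markers was called. The monocyte count was 1 without knockout replicate 3 or WT replicate 1. No T cell marker was called with limma-voom or without knockout replicate 1 or 3 or any 1 of the WT libraries.

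**Figure D5:**
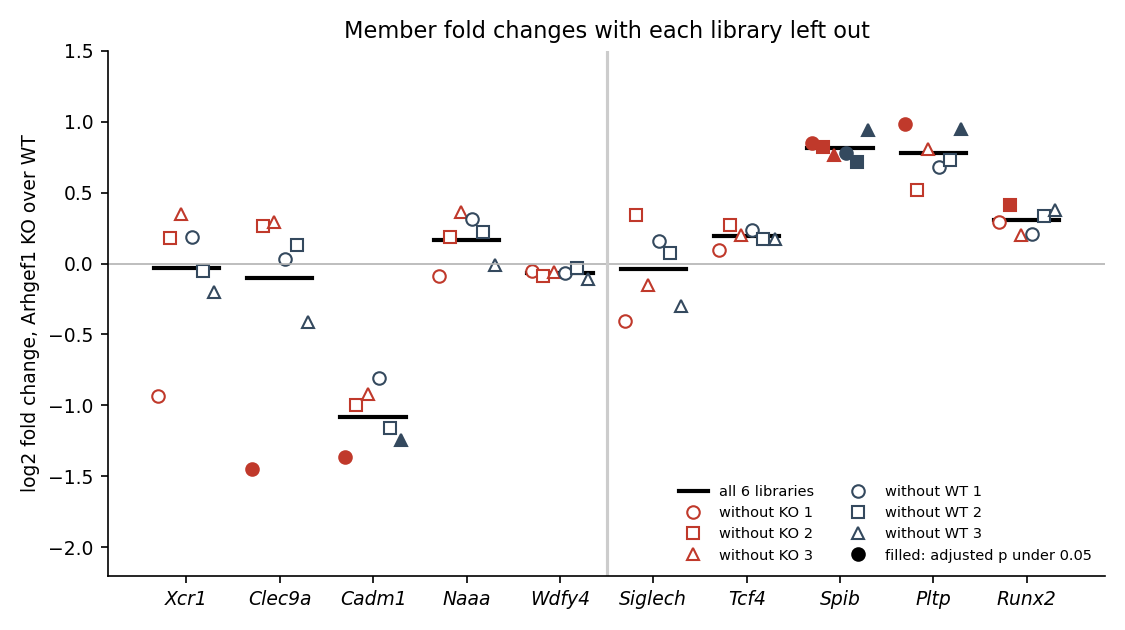
Log2 fold change (Arhgef1 knockout over WT) of the 10 genes with all 6 libraries (black bars) and with each library left out in turn (red, a knockout library; dark blue, a WT library); filled symbols have an adjusted p under 0.05. Spib is filled in all 6 fits, Clec9a drops to -1.45 only without knockout replicate 1, and Cadm1 and Pltp are filled in 2 of 6 fits each.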

How the data were processed

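The deposited table holds whole-number read counts per gene symbol for 6 libraries, not normalised by the authors. STAR, HTSeq, DESeq2 and the build mm10 are named in the submitters' processing notes, without versions. The sources used here do not say whether counting used strand or how RNA was selected. Counts were analysed in R 4.3.3 with edgeR 4.0.16: genes were kept by filterByExpr (11504 of 14788), libraries scaled by TMM (factors 0.977 to 1.02), and the genotypes compared by the quasi-likelihood test with Benjamini-Hochberg adjustment and a threshold of 0.05. Total counts of 8408325 to 11714365 per library set the precision, and 3 reads correspond to 0.256 to 0.354 CPM. The procedure was tested on simulated data.

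Values in CPM use the scaled library sizes. Positions and exon lengths come from GENCODE (mm10), and promoter windows from RefSeq (GRCm38.p6). The members and gene lists were chosen with earlier results of these data known. Of 197 list entries 6 were matched by an older symbol and 9 had no match. Named genes were the 10 members, the called genes and up to 4 with the smallest p in the cDC1, plasmacytoid, E protein and cDC2 lists, the 2 genes nearest to each called member (average log2 CPM of at least 3), Arhgef1, and markers of other cell types. Irf8, Cd22, the complement genes, Tcf7, Cd5, the neutrophil genes and the untested plasmacytoid genes were named after their values were seen. So were Batf3, Id2, Bst2, Lag3, Ptprs and Ccr9.

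Alternatives were other scaling factors, filters, limma-voom (limma 3.58.1), DESeq2 1.42.0, a replicate block and leaving out each library, 15 in all.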

Additional observations from a re-analysis of the deposited data

How the results depend on the processing

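Against 586 genes higher and 527 lower in the knockout, leaving out 1 library gave 310 to 583 higher and 264 to 489 lower. Of the 10 members, 1 rather than 2 was called higher with upper-quartile factors, limma-voom and the replicate block, and 1 to 2 were higher and 0 to 2 lower with 1 library left out. The plasmacytoid list likewise had 1 gene higher rather than 2 under those same settings, and 1 to 2 with a library left out. The cDC1 list had 1 gene higher rather than 2 with limma-voom, and 1 to 2 higher and 1 to 6 lower with a library left out. Of the 7 members that were not called, Xcr1, Clec9a, Naaa and Siglech changed sign in some settings, and Wdfy4, Tcf4 and Runx2 did not. The log2 fold change of Xcr1 was 0.0083 on total counts without TMM and ranged from -0.94 to 0.35 with a library left out (0.18 without knockout replicate 2, 0.35 without 3, 0.19 without WT replicate 1). That of Clec9a ranged from -1.45 to 0.29 (0.27 and 0.29 without knockout replicates 2 and 3, 0.03 and 0.13 without WT replicates 1 and 2). That of Naaa ranged from -0.088 (without knockout replicate 1) to 0.37 and was -0.01 without WT replicate 3. That of Siglech ranged from -0.41 to 0.34 (0.34 without knockout replicate 2, 0.16 and 0.08 without WT replicates 1 and 2), and that of Irf8 from -0.88 to 0.25 (0.15 without knockout replicate 2 or 3, 0.25 without WT replicate 1). Causes of these changes were not tested. Same-numbered libraries did not deviate together (correlations 0.04, -0.03 and -0.03), and 2 of 6 libraries correlated best with their own number; the replicate block gave 496 genes higher and 449 lower. Wdfy4 has no value with the 50 most abundant genes left out, nor Siglech and Cd300c under the stricter filter. With 11 to 39 reads per library, Siglech has the least precise value of the 10.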
